A study of Homo sapiens with 3 samples.

Results

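Absorptive colonocytes are the most numerous cells of the colon lining. They leave the crypt base, stop dividing and build a brush border of actin-filled microvilli that carries adhesion glycoproteins of the CEA family, ion exchangers and lipid-binding proteins, and the homeobox factor CDX2 maintains the intestinal identity of the tissue. The 10 genes described here belong to that programme: ANXA13, LGALS2, CEACAM5, CEACAM6, CEACAM7, FABP1, VIL1, CDX2, SLC26A3 and CA2. They were picked by name, with their differences between substrates on these same arrays already known, so their direction and size are a description of the arrays and carry no test. They are 10 of 21610 genes and 11 of 30004 probes that could be matched to a gene symbol.

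The RNA came from HT29, an established human colon adenocarcinoma cell line that is used as a model of intestinal differentiation. Cells were grown on tissue culture polystyrene (TCP, labelled 2D), on membranes of chitosan (CS), a polysaccharide derived from chitin, or on chitosan membranes to which hyaluronan, a matrix polysaccharide, had been grafted (CSHA). HT29 grows attached on TCP, and the study describes spheroids of this line on both membranes, so substrate and culture form cannot be told apart. Each substrate was represented by 1 single-colour array, and all 3 arrays lay on 1 slide. With no replicate of any substrate, differences have no replicate check and are given without p-values.

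Levels are the log2 processed signal of a probe relative to the 75th percentile of its own array, which was 354 for TCP, 423 for CS and 337 for CSHA in fluorescence units. A probe called well above background by the scanner software counted as measured, and between 48.6% (TCP) and 51.1% (CS) of probes were measured on an array. Where only 1 of the arrays compared had measured a gene, its difference is a lower bound, set against the lowest signal measured on the other array (24.1 on TCP, 21.1 on CS and 22.6 on CSHA) or the dim probe's own signal, whichever was higher. SLC26A3 was printed as 10 spots, and every other member probe as 1 spot. The error of a single spot was therefore taken in 2 ways, as the median SD among repeated spots of like brightness on the same array and as the error that the scanner software gives for the signal. Both describe the spots of an array and not differences between cultures. All 8 of 8 markers of colon epithelium were measured on each array, and of 8 stromal markers, COL1A1, COL1A2, COL3A1, DCN and LUM were not well above background on any array, while SPARC and VIM were measured on TCP and PDGFRB on CSHA.

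Of the 10 members, 8 were measured on all 3 arrays, FABP1 was measured on CS and CSHA only, and SLC26A3 was measured on none. At least 2-fold higher signal than on TCP was found for 5 of 9 members on CS and for 6 of 9 on CSHA, 1 of the latter (FABP1) as a bound. The same size was reached by 1.36% of 14462 genes compared on CS and by 3.02% of 14623 genes compared on CSHA, but since those differences were known when the members were chosen, nothing is read from this contrast. On CS the count of members was 4 with normexp background correction and with the deposited log2 values, where CEACAM7 fell short of 2-fold. Of all genes, 0.396% and 0.467% reached 2-fold under those settings. Without a filter on dim probes the count was 6, with FABP1, beside 2.93% of all genes. On CSHA it was 5 without FABP1 under 5 of 9 other settings, where between 1.06% and 2.66% of all genes reached 2-fold. With scaling to spike-in probes it was 9, beside 12.2% of all genes. For the members the median log2 difference was 1.07 with CS and 1.71 with CSHA, beside 0.04 and 0.13 for all genes compared. Both comparisons share the TCP array. In RNA from a whole culture, a change in the number of cells of a type and a change in RNA per cell cannot be told apart.

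**Figure D1:**
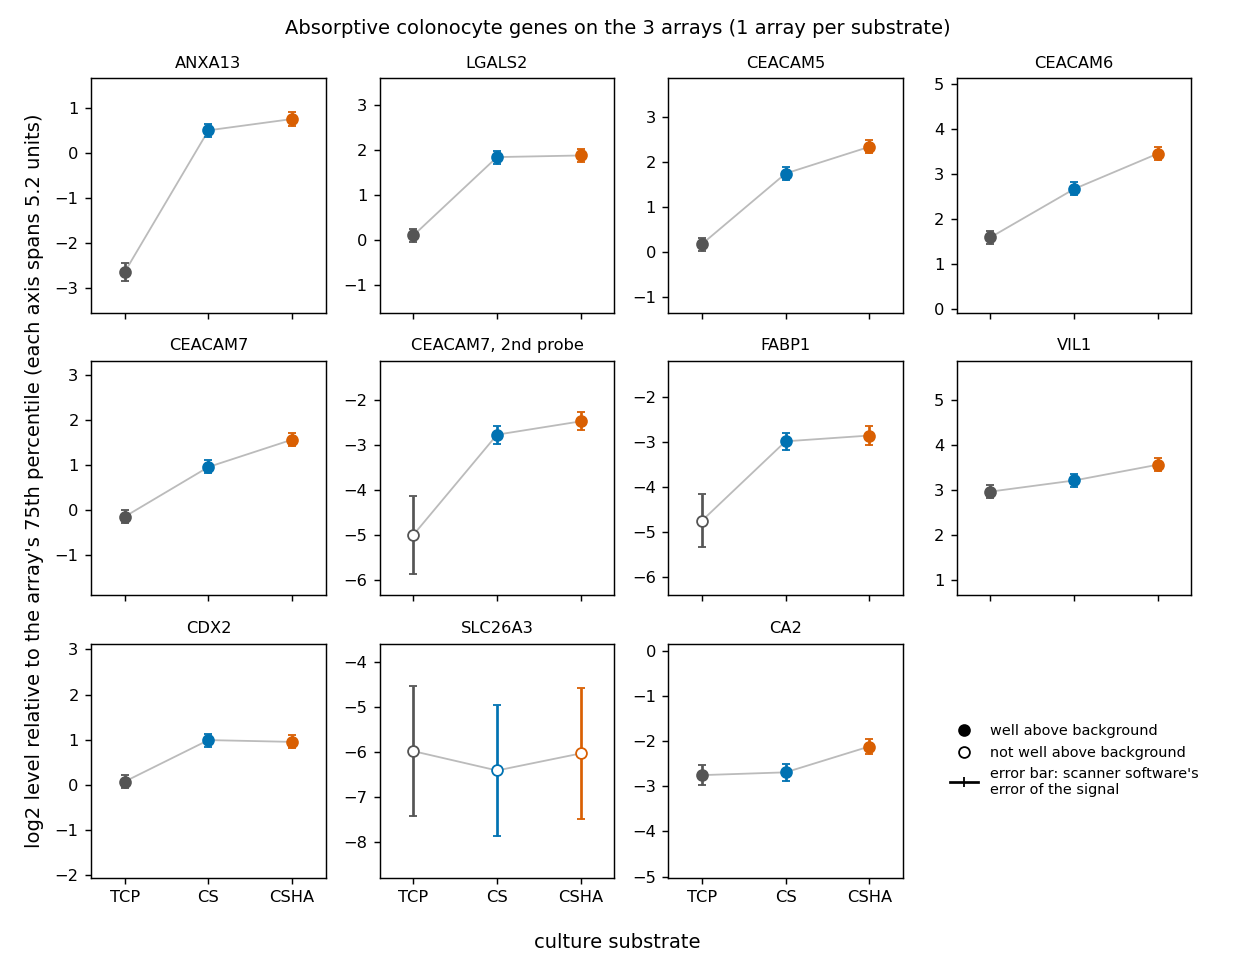
Level of each of the 11 member probes on the TCP, CS and CSHA arrays, as log2 signal relative to the array's 75th percentile, with the scanner software's error of the signal as bars and open circles for probes not well above background. ANXA13 goes from -2.63 on TCP to 0.51 on CS and 0.76 on CSHA, and SLC26A3 has open circles on all 3 arrays. The position of a panel's axis differs between probes, and heights are not to be compared between panels.

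ANXA13 encodes an annexin, a protein that binds membrane phospholipids in the presence of calcium, and its expression is largely that of intestinal and kidney epithelium. Its probe (NM_001003954) had a signal of 57.0 on TCP, 602 on CS and 572 on CSHA. It was far dimmer on TCP than on the membranes, which lay close together. The difference from TCP was 3.15 on CS (8.85-fold, spot SD 0.20, software error 0.24) and 3.40 on CSHA (10.5-fold, spot SD 0.20, software error 0.24). It was the widest difference of any member, at rank 4 from the highest among all genes on CS and rank 6 on CSHA, with bounds ranked at their own value. The TCP signal of ANXA13 was dim, and with normexp background correction the differences were 2.27 on CS and 2.49 on CSHA. CSHA and CS differed by 0.25 with a software error of 0.20.

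LGALS2 encodes galectin-2, a lectin of the gut lining that binds β-galactosides on cell surface glycoproteins. LGALS2 (NM_006498) gave a signal of 380 on TCP, 1518 on CS and 1242 on CSHA, or levels of 0.10, 1.85 and 1.88 once each array's brightness was taken into account. It was higher than on TCP by 1.74 on CS (3.34-fold) and by 1.78 on CSHA (3.43-fold), with a spot SD of 0.07 and 0.08. The membranes differed by 0.04, less than the spot SD of 0.06.

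CEACAM5, CEACAM6 and CEACAM7 encode glycoproteins of the carcinoembryonic antigen family that are attached to the apical membrane by a lipid anchor and mediate adhesion between cells. CEACAM5 is carcinoembryonic antigen itself, the serum marker followed in colorectal cancer, and CEACAM7 in the normal colon is a gene of the mature surface epithelium. The 3 genes lie next to each other on chromosome 19. The 250 bases before the start of each, taken from RefSeq on GRCh38.p14, are shown because these neighbours shared the pattern described next. CEACAM5 is at chr19:41708376-41708625 on the plus strand, CEACAM6 at chr19:41755280-41755529 on the plus strand and CEACAM7 at chr19:41688271-41688520 on the minus strand. Each is written 5′ to 3′, and capitals mark CACGTG, a form of the E-box. Other forms of the E-box were not searched.
CEACAM5: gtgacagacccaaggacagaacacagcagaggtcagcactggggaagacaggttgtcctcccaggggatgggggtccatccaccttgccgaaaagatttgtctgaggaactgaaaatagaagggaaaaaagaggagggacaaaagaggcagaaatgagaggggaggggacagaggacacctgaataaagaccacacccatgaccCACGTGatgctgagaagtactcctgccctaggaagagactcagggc
CEACAM6: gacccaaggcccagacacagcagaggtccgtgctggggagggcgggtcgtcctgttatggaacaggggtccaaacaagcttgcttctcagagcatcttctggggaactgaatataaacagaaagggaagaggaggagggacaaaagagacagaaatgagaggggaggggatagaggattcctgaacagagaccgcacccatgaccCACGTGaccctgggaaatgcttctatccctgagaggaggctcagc
CEACAM7: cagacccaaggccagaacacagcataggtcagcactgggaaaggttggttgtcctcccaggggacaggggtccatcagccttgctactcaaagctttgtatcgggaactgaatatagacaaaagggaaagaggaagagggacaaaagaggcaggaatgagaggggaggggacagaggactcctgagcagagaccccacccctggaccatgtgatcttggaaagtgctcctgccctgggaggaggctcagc
Counted back from the start of the gene, CACGTG began at position -46 in CEACAM5 and -45 in CEACAM6, and these letters did not occur in the window of CEACAM7. On either strand, 6.49% of 27305 promoters of the same length held it. In pairwise alignment of these windows, CEACAM5 was identical to CEACAM6 at 74.6% of aligned positions and to CEACAM7 at 80.5%, and CEACAM6 to CEACAM7 at 79.9%. All other pairs among the 7 members with a promoter entry gave between 43.7% and 52.7%.

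CEACAM5 (NM_004363) had a signal of 397 on TCP, 1406 on CS and 1692 on CSHA. Its levels were ordered TCP, CS, CSHA and stood apart from each other. CEACAM5 was 1.57 higher on CS than on TCP (2.97-fold) and 2.16 higher on CSHA (4.47-fold), with a software error of 0.21 for each. CSHA exceeded CS by 0.59 (1.51-fold, software error 0.20).

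CEACAM6 (NM_002483) gave 1068 on TCP, 2686 on CS and 3694 on CSHA, again in that order. The difference from TCP was 1.07 on CS (2.11-fold) and 1.86 on CSHA (3.63-fold), and CSHA was above CS by 0.79 (1.72-fold), the widest gap of any member between the membranes. CEACAM7 (NM_006890) was read by 2 probes. On the brighter one, with signals of 320, 821 and 999, CEACAM7 was higher than on TCP by 1.10 on CS (2.15-fold) and 1.71 on CSHA (3.27-fold), and higher on CSHA than on CS by 0.61. The dimmer probe gave 11.1 on TCP, which was not well above background, 61.8 on CS and 60.6 on CSHA. Its differences were at least 2.15-fold on CS and at least 2.64-fold on CSHA, so both probes placed TCP lowest. Between CSHA and CS the dimmer probe differed by 0.30, with a software error of 0.28, less than the brighter probe. CEACAM transcripts are alike in sequence, and binding of a probe to more than 1 of them was not tested.

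CEACAM family members outside the 3 did not share this pattern as a group. Of 8 relatives on the array, CEACAM8, CEACAM16 and CEACAM21 were not well above background on any array. CEACAM1, a transmembrane member of the family, differed from TCP by -0.14 on CS and 0.12 on CSHA, both within the software error of 0.20. CEACAM3, the next gene beyond CEACAM6 and a receptor of granulocytes, was lower by 0.52 (CS) and 0.71 (CSHA), while its other probe differed by -0.13 and -0.54. CEACAM4, on the other side of CEACAM7, was at least 1.63 higher on CS, but was not well above background on TCP or CSHA. The highest relative with a value on CSHA was CEACAM19, at 0.25.

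**Figure D2:**
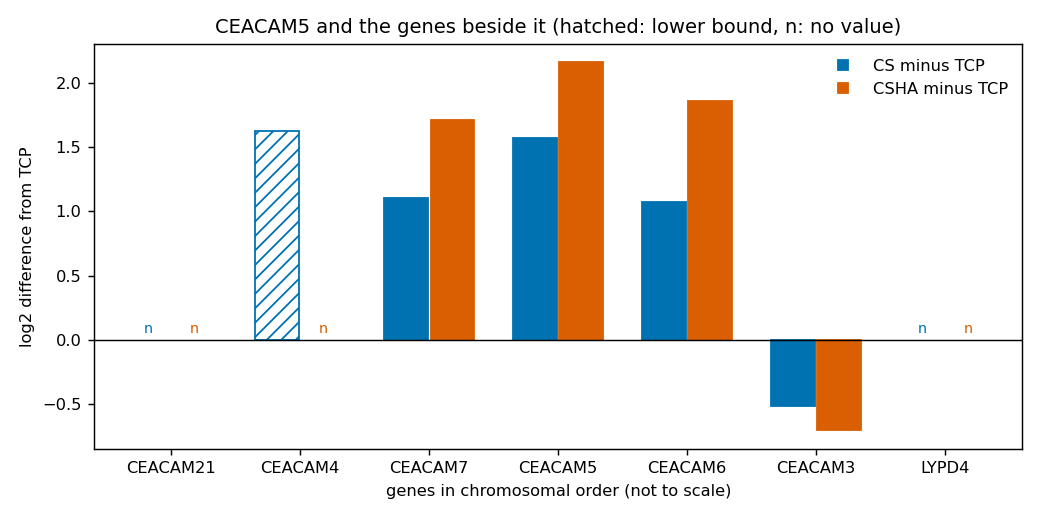
Log2 difference from TCP on CS and CSHA of CEACAM5 and the 3 genes on each side of it that have a probe on the array, in chromosomal order and not to scale, with a hatched bar for a lower bound and n for no value. CEACAM7, CEACAM5 and CEACAM6 lie between 1.07 and 1.57 on CS and between 1.71 and 2.16 on CSHA, while CEACAM3 is below 0 on both.

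CDX2, the caudal-type homeobox transcription factor that specifies and maintains intestinal epithelium, had a signal of 371 on TCP, 838 on CS and 650 on CSHA (NM_001265). Relative to TCP it was higher by 0.92 on CS (1.89-fold) and by 0.88 on CSHA (1.84-fold), just under 2-fold on each membrane, with a spot SD of 0.08. The membranes differed by -0.04, within the spot SD. The related factor CDX1 differed from TCP by -0.04 on CS and 0.13 on CSHA.

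FABP1 encodes the liver-type fatty acid binding protein, which carries long-chain fatty acids in enterocytes and hepatocytes. Its probe (NM_001443) read 13.1 on TCP, where it was not well above background, 53.0 on CS and 46.3 on CSHA. The bounds were at least 1.84-fold for CS and at least 2.02-fold for CSHA, and the 2-fold count on CSHA includes it by that narrow margin. The difference between the membranes, 0.13, was within the spot SD of 0.25.

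SLC26A3 encodes the apical exchanger that takes up chloride in return for bicarbonate and whose loss causes congenital chloride diarrhoea. None of its 10 spots was well above background on any array (NM_000111). The mean over its spots was 5.62 for TCP, 4.98 for CS and 5.17 for CSHA, and single spots ran from 5.02 to 6.49, from 4.43 to 5.67 and from 4.68 to 5.70. The ranges of the 3 arrays overlapped at a level where the scanner software does not call a signal, so no difference is given.

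Among other motifs searched on either strand in the same 250 bases, FABP1 held TTTATG, a CDX motif found in 10.02% of promoters, at -89, and the TATA box TATAAA, found in 11.1%, at -31. CEACAM6 held TATAAA at -139. No match overlapped another. The windows of LGALS2, CEACAM5, CEACAM7, CDX2 and SLC26A3 held neither of these motifs.

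VIL1 encodes villin, which bundles actin filaments in the core of microvilli. The VIL1 probe (NM_007127) gave 2765 on TCP, 3917 on CS and 3987 on CSHA, or levels of 2.97, 3.21 and 3.56. It was higher than on TCP by 0.25 on CS (1.19-fold, software error 0.20) and by 0.60 on CSHA (1.51-fold), and the membranes differed by 0.35. CA2 encodes the cytosolic carbonic anhydrase that supplies bicarbonate for exchange at the brush border. Its dim probe (NM_000067) gave 52.7 on TCP, 65.7 on CS and 78.0 on CSHA. On CS it lay 0.06 above TCP, less than the spot SD of 0.23, and on CSHA 0.64 above TCP (1.55-fold, software error 0.28).

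**Figure D3:**
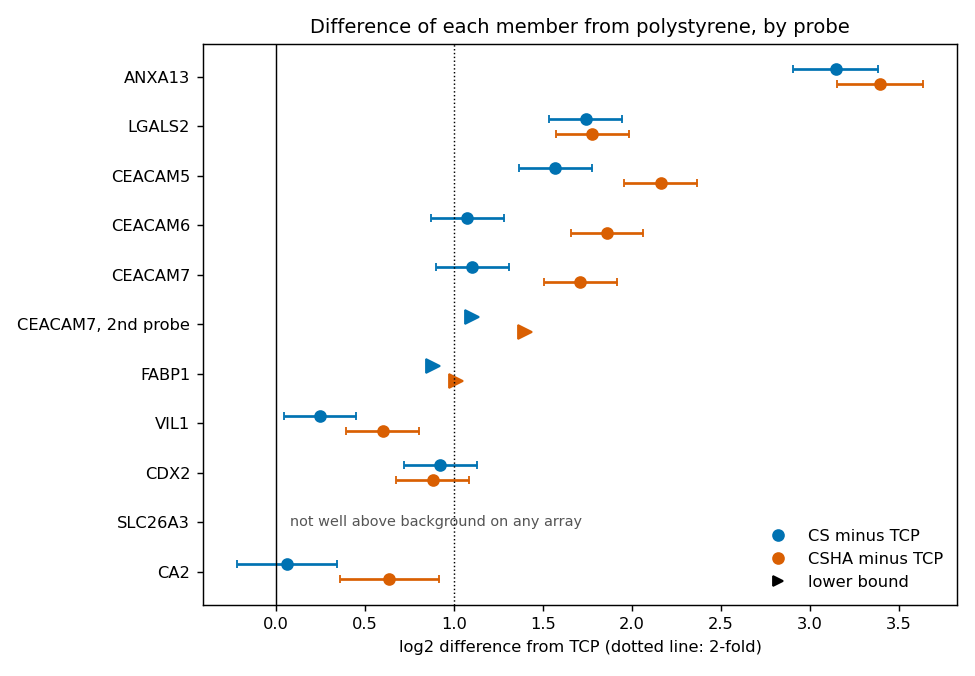
Log2 difference from TCP of each member probe on CS and CSHA, with the scanner software's error of the difference as bars and triangles for lower bounds. ANXA13 lies beyond 3 on both membranes, the 3 CEACAM genes lie further right on CSHA than on CS, and CA2 on CS spans 0.

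The members thus differed among themselves in size. More than 2 software errors separated CS from TCP for 6 of 8 members measured on both arrays (ANXA13, LGALS2, CEACAM5, CEACAM6, CEACAM7 and CDX2), and CSHA from TCP for 8 of 8. How many of all genes passed that limit was not calculated, so nothing particular to the members is read from these counts. At least 1.5-fold higher signal was found for 7 of 9 members on CS and 9 of 9 on CSHA, beside 4.11% and 11.5% of all genes. FABP1 entered both counts as a bound. Under the setting that gave the lowest value, VIL1 was at 0.54, CA2 at 0.28 and FABP1 at 0.54 on CSHA, each short of 1.5-fold. FABP1 was then at 0.37 on CS, also short of it. At least 3-fold was reached by 2 members on CS and by 5 on CSHA, beside 0.519% and 1.02%. In the other direction, 0 members were 2-fold lower on either membrane, where 1.92% of all genes were on CS and 3.98% on CSHA.

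The hyaluronan graft was addressed by setting CSHA against CS, a contrast that does not use the TCP array. Of 9 members, 0 were 2-fold apart between the membranes, beside 4.43% of 14596 genes. The 3 CEACAM genes exceeded 1.5-fold, with CSHA the higher, a count without a share over all genes. CEACAM5 and CEACAM7 fell short of 1.5-fold with normexp (0.50 and 0.54) and with the deposited values (0.54 and 0.58). With the mean over its probes CEACAM7 was at 0.45. CEACAM6 stayed between 0.77 and 1.16 under the other settings. Among those 14596 genes, CEACAM6 stood at rank 574 from the highest, CEACAM7 at 1043 and CEACAM5 at 1089. Of the members, only CEACAM5, CEACAM6, CEACAM7 and CA2 differed by more than 2 software errors, again without a share over all genes. LGALS2, FABP1 and CDX2 differed by less than the spot SD. The median over the members was 0.35, beside 0.07 for all genes.

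The rest of the absorptive programme was read from 63 other genes in 5 lists. The genes were chosen for their known roles, but with earlier results of these data known. Of these, 18 were not well above background on any array, among them the brush border enzymes ALPI, SI, LCT and MGAM, the sodium-proton exchanger SLC9A3, the membrane carbonic anhydrase CA4 and the fatty acid binding protein FABP2. On CS, 31 of 42 genes with a value were above TCP and 11 below, with 3 higher and 0 lower by at least 2-fold. Of all genes, 56.8% were above TCP on CS and 1.36% at least 2-fold higher. On CSHA, 29 of 43 were above and 14 below, with 4 higher and 1 lower by at least 2-fold, beside 61.7% above TCP and 3.02% at least 2-fold higher among all genes. These counts include 4 bounds on CS and 6 on CSHA, whose direction follows from which array measured the gene. The shares of all genes include bounds too, 823 on CS and 1098 on CSHA. The median differences of the other absorptive genes, 0.19 for CS and 0.30 for CSHA, were nearer to the median of all genes than to that of the members.

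Among the 12 genes of brush border structure, MYO1A, the motor protein that ties the actin core to the microvillar membrane, was the highest. Its signal of 51.2 on TCP, 163 on CS and 168 on CSHA made it 1.42 higher on CS and 1.79 higher on CSHA. The median of the list was 0.09 on both membranes, and the lowest gene on CS was CDHR2, a cadherin that links microvilli, at -0.53. On CSHA, USH1C, a scaffold of those links, was the lowest gene measured on both arrays, at -0.47, and CDHR2 was at least 0.28 lower than on TCP.

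Among the 16 transport genes, GUCA2A, which encodes the secreted peptide guanylin, gave 36.6 on TCP, 129 on CS and 50.1 on CSHA. It was 1.56 higher on CS and 0.52 higher on CSHA, so it was brightest on CS. SCNN1A, a subunit of the epithelial sodium channel of absorptive cells, gave 2172, 1957 and 670 on TCP, CS and CSHA and was lower by 0.41 and 1.63. SLC26A2, a sulfate transporter of the same family as SLC26A3, was the highest transport gene measured on both CSHA and TCP, at 0.72, while 3 others had lower bounds only.

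Of the 12 enzymes and lipid-handling genes, 8 were not well above background on any array. DPP4, a brush border peptidase, had signals of 482, 915 and 983 on TCP, CS and CSHA and exceeded TCP by 0.67 on CS and 1.10 on CSHA. APOA1, an apolipoprotein, was the highest of them on CS at 0.74, while its other probe was not well above background on any array. The lowest measured difference was that of PDZK1, a brush border scaffold, at 0.21 on CS and 0.30 on CSHA. The peptidase ANPEP was measured on CSHA only, at least 0.21 higher than on TCP.

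Among the 11 intestinal transcription factors, 9 were measured, and their median was 0.17 for CS and 0.43 for CSHA. HNF4G, a nuclear receptor of enterocytes, was the highest on CS, with signals of 130, 310 and 218 and differences of 0.995 on CS, just under 2-fold, and 0.82 on CSHA. Its other probe was measured on CSHA only, at least 0.27 higher. HNF4A, its paralogue, gave 31.5, 36.1 and 60.3 on a dim probe and differed by -0.06 on CS and 1.01 on CSHA with a spot SD of 0.30.

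Of the 12 markers of mature colonocytes, PHGR1, which encodes a small protein of the surface epithelium, had the highest measured difference on both membranes. It gave 3323 on TCP, 11487 on CS and 14618 on CSHA, higher by 1.53 on CS and 2.21 on CSHA. KRT20, a keratin of the upper crypt and surface, lay above TCP by 0.24 on CS and 0.90 on CSHA. MS4A12, a membrane protein of colonocytes, was measured on CS only, at least 0.93 higher than on TCP. The other MS4A12 probe was not well above background on any array. The lowest were PLAC8 on CS at -0.33, with -0.92 on its other probe, and TSPAN1 on CSHA at -0.64. The list's medians were 0.21 (CS) and 0.22 (CSHA).

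**Figure D4:**
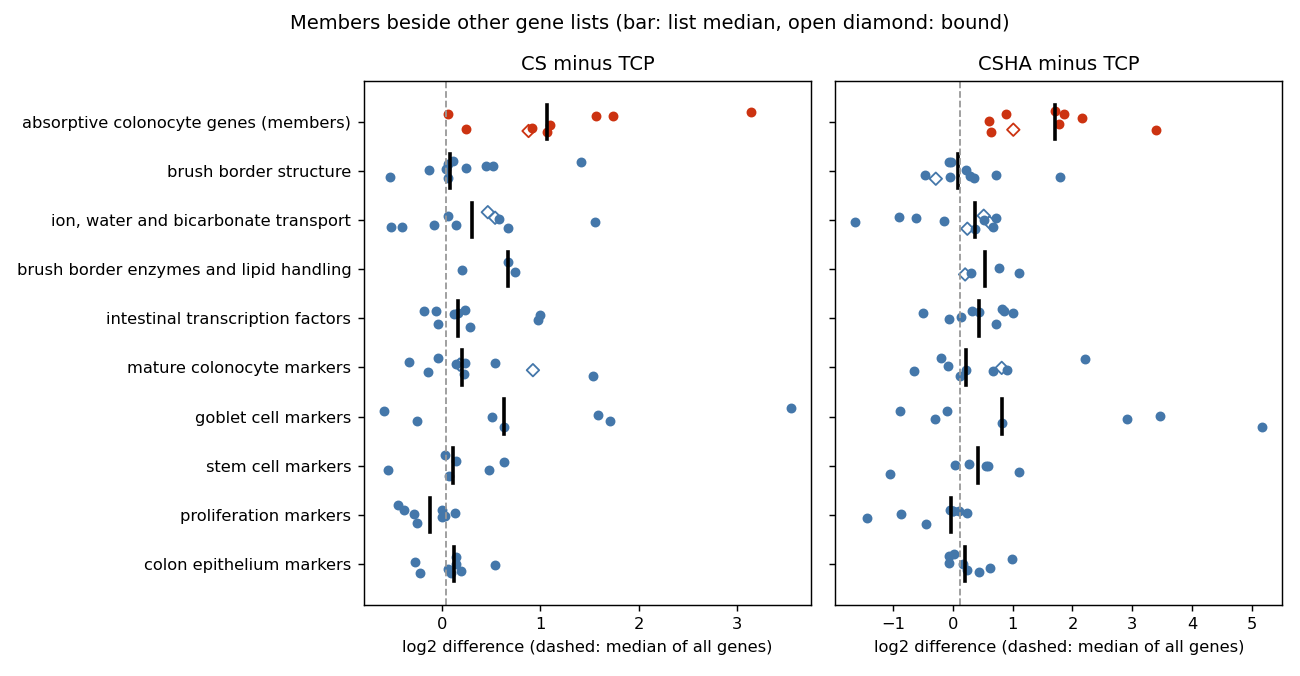
Log2 difference from TCP of the members, the 5 lists of other absorptive genes and 4 marker lists, on CS and on CSHA, with 1 point per gene, an open diamond for a bound, a black bar for the list median and a dashed line for the median of all genes. The bar of the members stands at 1.07 and 1.71, and goblet cell markers reach 3.55 on CS and 5.17 on CSHA.

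Relatives of the members in their own gene families were compared in the same way. With scaling to spike-in probes, measured differences on CSHA lie 0.43 higher, so those less than that below 0 change sign. Among annexins the median was -0.07 on CS and -0.05 on CSHA, and on CSHA they ran from ANXA7 at -1.27, whose other probe was at 0.32, to ANXA4 at 0.60. Among galectins the highest on CSHA was LGALS7 at 0.50 and the lowest was LGALS1 at -0.91. The carbonic anhydrases measured on both arrays ran on CSHA from CA11 at -0.92 to CA9, the enzyme induced by low oxygen, at 0.70. Of the fatty acid binding proteins, FABP5 and FABP6 alone were measured, with 0.22 and 0.56 on CSHA. The SLC26 family reached from -0.62 for SLC26A1 to 0.94 for SLC26A9 on CSHA.

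Markers of other intestinal cell types were read on the same arrays, since HT29 can form more than 1 cell type. Of 10 goblet cell markers, 7 were measured on each array and CLCA1, ZG16 and ATOH1 on none. Their summed level, in units of the array's 75th percentile, was 34.7 for TCP, 52.2 for CS and 73.6 for CSHA. Most of each sum was AGR2, a secretory pathway protein, and without it the sums were 4.44, 9.06 and 20.1. SPINK4, a peptide secreted by goblet cells, was 3.55 higher on CS and 5.17 higher on CSHA, and SPDEF, a transcription factor of these cells, was lower by 0.58 and 0.88. MUC2, the main gel-forming mucin, differed by -0.25 and -0.10, and by 0.24 and 0.98 on its other measured probe. TFF3 and FCGBP, both secreted by goblet cells, also exceeded TCP, TFF3 by 1.71 on CS and 2.92 on CSHA and FCGBP by 1.58 and 3.46. The other TFF3 probes gave 1.65 and 2.37, and 0.61 and 0.70. Of the 7 measured goblet cell markers, 5 were above TCP and 2 below on CS, and 4 above and 3 below on CSHA. Among all genes compared, 56.8% lay above TCP on CS and 61.7% on CSHA. The part of the goblet cell markers in the members' values was not tested.

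Stem cell markers summed to 55.0 for TCP, 59.9 for CS and 79.2 for CSHA, with 6 of 8 measured, OLFM4 and SMOC2 on none, and a range on CSHA from AXIN2 at -1.04 (other probe -0.15) to ASCL2 at 1.11. Most of these sums was RNF43, and without it they were 7.60, 7.49 and 8.04. Proliferation markers, 8 of 8 measured, summed to 164, 156 and 148, and ran on CSHA from MCM2 at -1.43 to CCNB1 at 0.24. Colon epithelium markers summed to 1545, 1458 and 1688, from CLDN7 at -0.06 to CLDN3 at 0.99 on CSHA. Of 9 enteroendocrine markers, GCG and NEUROG3 alone were measured, with sums of 1.04, 0.98 and 1.12 and differences on CSHA of 0.45 and 0.08. Stromal markers summed to 0.28, 0.12 and 0.37, with 2 of 8 measured on TCP, 0 on CS and 1 on CSHA, where PDGFRB was at least 1.98 higher, SPARC at least 0.31 lower and VIM at least 0.06 lower than on TCP. Immune and endothelial markers summed to 1.20, 1.12 and 1.36 over 7 genes, from CD3E at -1.75 to CD68 at 1.01 on CSHA. The part of these lists in the members' values was not tested.

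The processing changed the size of the members' differences more than their direction. Over 9 other settings, 158 of 160 differences of a member from TCP remained above 0, and both exceptions were CA2 on CS. Part of these could not change. The other filters and the mean over probes repeat the main value of a member with 1 probe measured on both arrays. A bound for a gene measured only on the membrane, as for FABP1, was kept only if above 0. On CS, ANXA13 ranged from 2.27 to 3.20 and FABP1 from 0.37 to 1.76. The ranges on CSHA were 2.49 to 3.83 for ANXA13 and 0.54 to 1.89 for FABP1, so for the latter the size depended on the treatment of its dim TCP signal. Scaling to spike-in probes moved every measured difference from TCP by 0.05 on CS and 0.43 on CSHA, and it moved the median of all genes on CSHA to 0.56.

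**Figure D5:**
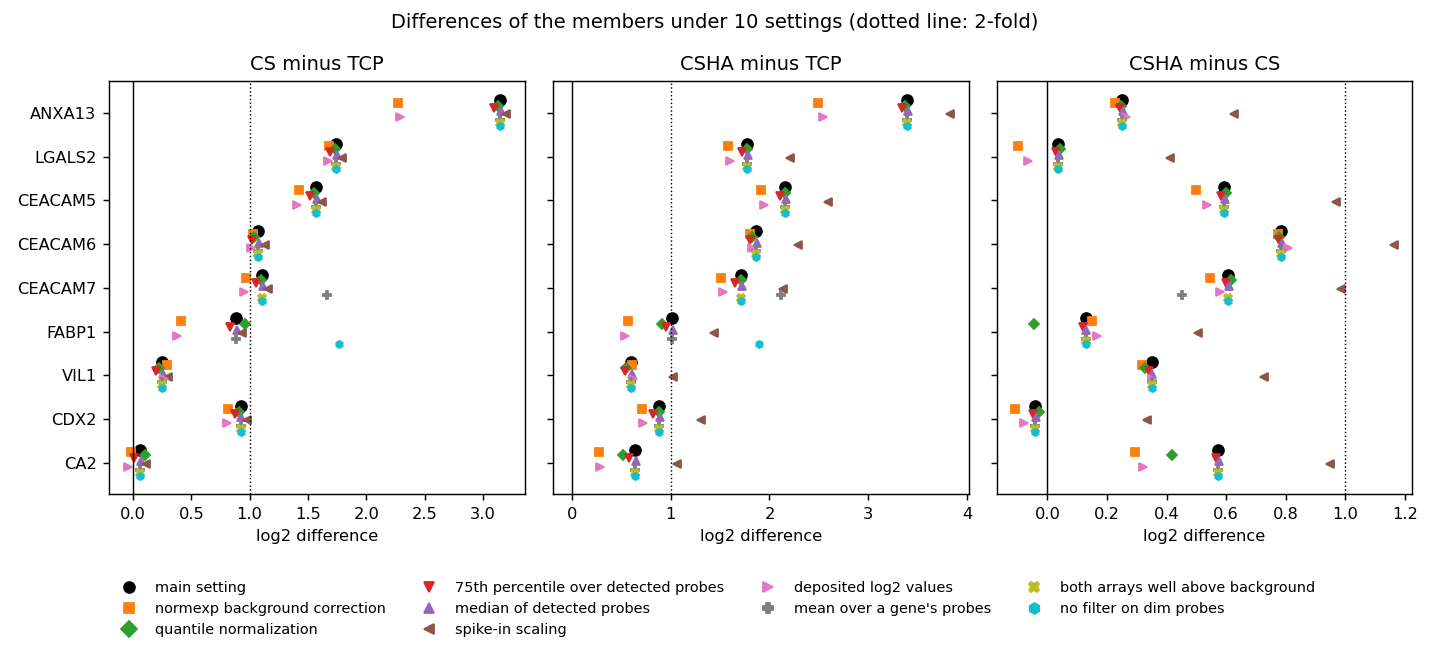
Log2 difference of 9 members between each pair of arrays under the main setting (black circles) and 9 other settings, with SLC26A3 left out because it has no difference. ANXA13 stays above 2 in both comparisons with TCP, CA2 on CS lies on both sides of 0, and spike-in scaling shifts the values that involve CSHA to the right.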

How the data were processed

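The authors deposited the spot intensities and flags of each of the 3 single-colour arrays, and log2 values per spot that matched the shifted and centred median signal (differences equal within 9.85e-08). Per the file headers, Feature Extraction 10.7.3.1 read the arrays and the probe grid was of build hg19, while the methods name another software version. The flags are deposited as other columns. The RNA and labelling kits in the sample records also differ from those in the methods.

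Here the processed signal, corrected for background, was raised to a floor of 1, log2 transformed and set relative to each array's 75th percentile, as the methods state for the raw signal. Of 58717 spots that were not controls, those flagged as outliers were left out, and the spots of each of 50599 probes were averaged. RefSeq on GRCh38.p14 gave a symbol for the accession of 30004 probes, and 20595 were not used. The brightest probe stood for a gene. Depth has no counterpart on arrays, where their number limits the precision, and 0 spots were saturated. The error of a single spot came from 902 probes printed at least 5 times, with median SDs of 0.07 for TCP, 0.06 for CS and 0.08 for CSHA.

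The members and the 18 lists were chosen with earlier results of these data known. Named genes are all members, other absorptive genes at least 2-fold different and the highest and lowest of each list, with the 5 genes most like the 2 members of widest difference, and a few others of known role were added after their values were seen. A few genes that this rule selects, and the matches of 1 searched motif, are not reported here. With 1 array per group there was no test. Arrays of 13639 genes were simulated for CS against TCP, with the spot SD of the TCP array as the only noise. Of 200 genes given a log2 change of 1.5, 200 were recovered at 2-fold, and 1 unchanged gene was called. The simulation checks the calculation and cannot show how often cultures or arrays differ by 2-fold. Alternatives were quantile normalization, normexp (offset 50), other shifts, 7 spike-in probes, other filters, the mean over probes, the deposited values and thresholds of 1.5-fold and 3-fold. Calculations used Python 3.11.15 with pandas 2.3.3 and numpy 2.4.6, and limma 3.58.1 in R 4.3.3.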

Additional observations from a re-analysis of the deposited data

Results flagged for a closer look

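Among the other absorptive genes, 11 measured on all arrays differed from TCP in opposite directions on the membranes, and among the members 0 did. In 9 of the 11, at least 1 of the differences was within 2 spot SDs, as for HNF4A (-0.06 on CS and 1.01 on CSHA) and SLC26A6 (0.07 and -0.61). In CA12 and LGALS4 both differences were beyond 2 spot SDs, and the difference between the membranes' effects was not tested. CA12, a membrane carbonic anhydrase, was at 0.15 on CS and -0.14 on CSHA, each smaller than its software error of 0.20. LGALS4, a galectin of the colon, was at 0.54 on CS and -0.20 on CSHA, the latter also no larger than its software error of 0.20. With scaling to spike-in probes both were above TCP on both membranes, at 0.20 and 0.29 for CA12 and at 0.59 and 0.23 for LGALS4.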

How the results depend on the processing

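The other filters and the mean over probes cannot change a member with 1 probe measured on both arrays. The count of values that stayed therefore includes repeats of the main value. Of 241 member values under 9 other settings, 187 stayed within the spot SD of the main value, 54 moved further and 6 took the other sign. Those were CA2 on CS against TCP (-0.01 with normexp and -0.04 with the deposited values), LGALS2 on CSHA against CS (-0.10 with normexp and -0.07 with the deposited values), FABP1 on CSHA against CS (-0.05 with quantile normalization) and CDX2 on CSHA against CS (0.34 with spike-in scaling). Of 100 counts and medians, 80 stayed near the main value (counts within 1.5 times it, medians within the spot spread) and 20 moved. With normexp, the median of the members was 0.97 on CS and 1.51 on CSHA. There 1 other absorptive gene was 2-fold higher on CS, beside 0.396% of all genes. With the deposited values these were 0.95, 1.53 and 1, beside 0.467% of all genes. With spike-in scaling, the median of the members on CSHA was 2.14, that of the other absorptive genes was 0.74, beside 0.56 for all genes, and 5 other absorptive genes on CS and 15 on CSHA were 2-fold higher, beside 1.51% and 12.2% of all genes. Between the membranes the members' median was then 0.73 and 1 member was 2-fold apart, beside a median of 0.45 for all genes. Without a filter on dim probes, 7 other absorptive genes on CS and 10 on CSHA were 2-fold higher, beside 2.93% and 5.23% of all genes. At 1.5-fold, 10 and 15 were, beside 4.11% and 11.5% of all genes. At that size 3 members were apart between the membranes, a count without a share over all genes. At 3-fold, 2 members and 0 other absorptive genes on CS and 2 other absorptive genes on CSHA were higher, beside 0.519% and 1.02% of all genes. The causes were not tested. No paired analysis was possible because each group has 1 array. Signals near background limit FABP1, SLC26A3, CA2 and HNF4A. TCP signals were also dim for ANXA13 (57.0), MYO1A (51.2), GUCA2A (36.6) and APOA1 (33.0), which limits the size of their differences from TCP.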

Other observations

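The genes whose pair of differences from TCP lay nearest to those of ANXA13 and CEACAM5 were found among 13483 genes measured on all arrays, by Euclidean distance over the differences on CS and CSHA. For ANXA13 the nearest was ATF6B, a transcription factor of the unfolded protein response, at a distance of 0.94, with 2.22 on CS and 3.53 on CSHA. TFF3 (1.51) and FCGBP (1.56), both secreted by goblet cells, CTSZ (1.56), a lysosomal protease, and KLK12 (1.73), a secreted protease, followed. CEACAM5 had much closer company, with PHGR1 at 0.06, BNIP5 at 0.09, RAMP1 and SLC39A5 at 0.14 and TPPP at 0.15. Only 2 values define a pattern here, and both share the TCP array.

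Genes beside other members on the chromosome gave values of their own. The nearest measured neighbours of ANXA13 were FBXO32, at 0.51 on CS and 1.07 on CSHA, and FAM91A1, at -0.01 and 0.08. Those of LGALS2 were CDC42EP1, at -0.05 and -0.34, and GGA1, at 0.06 and 0.60.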
